A study of Mus musculus with 12 samples.

Results

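Branched-chain amino acid catabolism is represented here by 29 genes, chosen by name as the carriers, enzymes and enzyme regulators that take up leucine, isoleucine and valine and break them down, out of 23163 genes in the deposited count table. All 29 were in the table, and all 29 passed the filter on low counts in each of the 5 comparisons. The libraries hold RNA of the brown fat (brown adipose tissue, BAT) and the fat under the skin (subcutaneous white adipose tissue, sWAT) of wild-type male C57Bl/6 mice, 8 to 12 weeks old, kept for 72 h at 4 °C or at 30 °C, near thermoneutrality for a mouse. The labels give 20 mice, 10 at each temperature, and 12 libraries, 3 for each tissue and temperature. The 4 groups are BAT at 30 °C, BAT at 4 °C, sWAT at 30 °C and sWAT at 4 °C, and they share strain, sex, genotype and age range. The labels leave out whether libraries are single animals or pools, so p-values measure the spread between these samples, which may be technical.

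Leucine, isoleucine and valine enter cells through L-type amino acid carriers and lose their amino group to a branched-chain aminotransferase. The branched-chain 2-oxo acid dehydrogenase complex (BCKDH) in the mitochondrion then commits the carbon skeletons to oxidation, and a kinase and a phosphatase switch it off and on. After that step the routes part. Leucine ends as acetyl-CoA and acetoacetate, valine as propionyl-CoA, and isoleucine as both, and propionyl-CoA reaches the citric acid cycle as succinyl-CoA through biotin-dependent and vitamin B12-dependent enzymes. Brown fat is known to oxidise these amino acids during cold exposure in mice, and white adipocytes use their carbon for lipid synthesis.

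Levels are given as CPM, the counts of a gene per 1000000 counts of its library, scaled by library totals and TMM factors, always in the order library 1, 2 and 3 of a group. A log2 fold change is given ± a standard error (SE) derived from its test statistic, with 3 libraries per group. P-values come from the quasi-likelihood test of edgeR, adjusted over all genes tested by the Benjamini-Hochberg method. A gene is called higher or lower at an adjusted p of at most 0.05. Totals ran from 27117934 to 56243016 counts per library. The tissue labels were checked against marker genes. Ucp1, the uncoupling protein of brown fat, ran from 1397 to 2550 CPM in BAT at 30 °C and from 20030 to 22940 CPM in BAT at 4 °C, against 41.4 to 379.6 CPM in sWAT at 30 °C, and Adipoq, an adipocyte hormone, was at 448.3 CPM or more in every library. Transcripts of the 13 mitochondrially encoded genes took 0.181% to 0.307% of counts in the 3 sWAT libraries at 30 °C and 17.6% to 53.8% in the other 9 libraries. The same 3 sWAT libraries had the steepest slope of log2 CPM on the GC content of transcripts, 0.87 to 1.46 per 10 percentage points, against −0.74 to 0.29 in the others. In sWAT the makeup of the library and the temperature therefore cannot be told apart. Among the BAT libraries the pair numbered 3 stood apart, with mitochondrially encoded shares of 17.6% at 30 °C and 53.8% at 4 °C, so BAT counts are also given without that pair.

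More of the 29 genes were called higher in cold in sWAT than in BAT, and so were more of all genes tested. In BAT 5 of the 29 genes were higher at 4 °C and 0 were lower. The 5 were Slc3a2, Dbt, Pcca, Mcee and Mmab, and they make up 17.2% of the set, where 12.2% of all 14612 genes tested were called. By direction, 6.82% of all genes were called higher and 5.34% lower. In sWAT 17 genes were higher and 1 was lower, 62.1% of the set, beside 49.2% of all 15731 genes tested, with 25.1% called higher and 24.1% lower. The median log2 fold change of the 29 genes was 0.46 in BAT and 1.04 in sWAT, while the median over all genes tested was −0.04 and 0.00. At an unadjusted p under 0.05, 8 of the 29 genes passed in BAT. The share of all genes at that threshold is not given here, so this count has no background. For 0 lower genes in BAT, DESeq2 gave 1 and limma-voom gave 0.

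**Figure D1:**
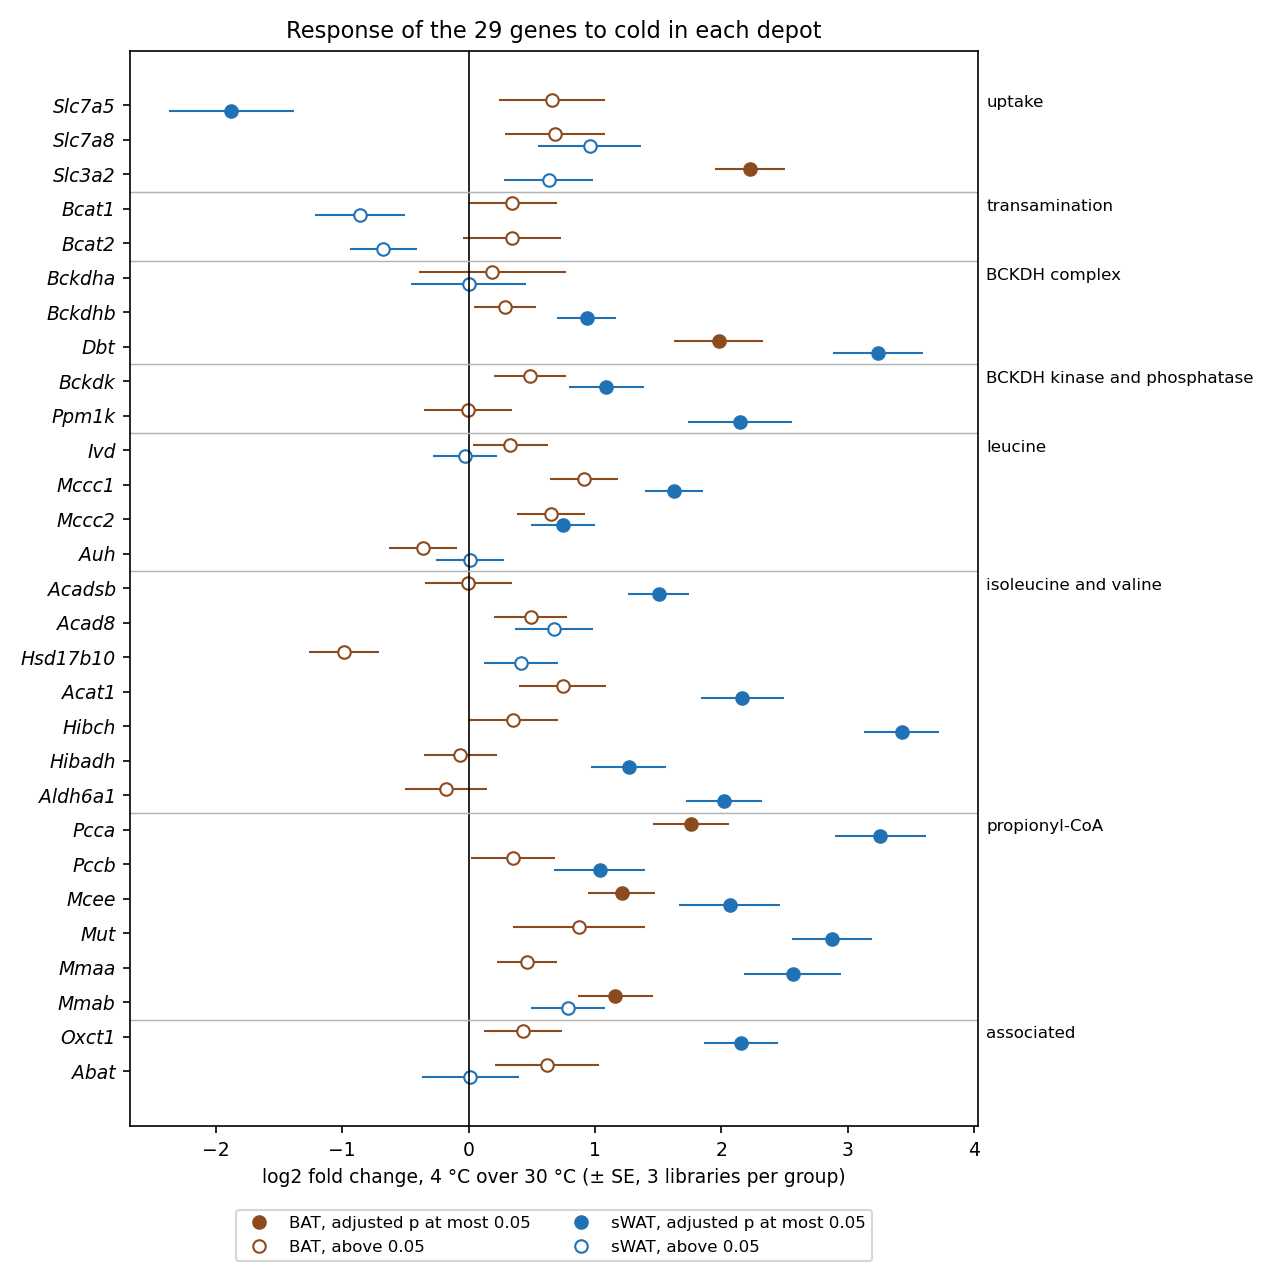
Log2 fold change of each of the 29 genes, 4 °C over 30 °C, in BAT (brown) and sWAT (blue), with bars for the SE and 3 libraries per group, grouped by role from uptake at the top to associated enzymes at the bottom. Filled points passed an adjusted p of 0.05: 5 in BAT, all to the right of 0, and 18 in sWAT, all to the right of 0 except Slc7a5.

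The groups of 3 libraries did not overlap for 11 of the 29 genes in BAT, 10 higher and 1 lower in cold, beside 35.6% of all genes tested. In sWAT they did not overlap for 20 of the 29, 17 higher and 3 lower, beside 60.6% of all genes tested. Summed over the 29 genes, BAT held 3480, 4866 and 4233 CPM at 30 °C and 6072, 5664 and 5690 CPM at 4 °C. The sum in sWAT was 2227, 1988 and 1747 CPM at 30 °C and 3440, 4766 and 4867 CPM at 4 °C. In both tissues every cold library lay above every library at 30 °C, and 2 of the 3 sWAT libraries at 4 °C lay within the range of BAT at 30 °C or 1 CPM above it. Leaving out 1 BAT library at a time gave 2 to 6 higher genes, the fewest without library 2 at 30 °C. Without the pair of BAT libraries numbered 3, 10 genes were higher in BAT and 1 was lower, the 5 above among them, which is 37.9% of the set beside 44.7% of all genes tested in that fit.

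In sWAT other transcripts moved with temperature. Of 15 skeletal muscle markers 11 were called higher at 4 °C, and their summed level ran from 138.2 to 5831 CPM at 30 °C and from 8372 to 23270 CPM at 4 °C. Of 15 lymphocyte markers 7 were lower, with sums of 915.8 to 1320 CPM at 30 °C and 260.9 to 824.1 CPM at 4 °C. Brown adipocyte markers were higher for 6 of 8 tested, with sums of 275.7 to 1216 CPM at 30 °C and 4574 to 17150 CPM at 4 °C. Zic1, a marker of classical brown fat, was at 0 in 1 of the sWAT libraries at 30 °C and at most 0.0981 CPM in the other 2. In cold libraries 1, 2 and 3 of sWAT Zic1 was at 0.0937, 9.32 and 6.75 CPM, against 3.89 to 30.5 CPM over the BAT libraries. Cold library 1 of sWAT stood apart from libraries 2 and 3, with Ucp1 at 3244 CPM against 13250 and 11640 CPM, and without it 20 of the 29 genes were higher in sWAT and 2 were lower, 75.9% of the set beside 54.2% of all genes. Of 8 adipocyte markers 2 were higher and 0 lower, with a median log2 fold change of 0.06. Their sum ran from 5340 to 8144 CPM at 30 °C and from 13090 to 19850 CPM at 4 °C, with Fabp4, a fatty acid binding protein, 12.03-fold higher (log2 fold change 3.59 ± 0.55, adjusted p = 0.00128). In BAT 3 of the 15 muscle markers were lower in cold, with sums of 4306 to 14200 CPM at 30 °C and 4705 to 7590 CPM at 4 °C. Apart from Zic1, no marker of these lists was at 0 in any sWAT library. The part of these lists in the results below was not tested. In bulk tissue, fewer cells of a type and less RNA per cell cannot be told apart.

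In the set, uptake is represented by a shared heavy chain, Slc3a2, and by the light chains Slc7a5 (LAT1) and Slc7a8 (LAT2), which carry the amino acids. Carriers outside the set, among them Slc7a6 and Slc43a2, are given further below. Slc3a2 had the largest response to cold of the 29 genes in BAT, 4.68-fold. In BAT its levels were 59.9, 46.5 and 55.6 CPM at 30 °C and 239, 300.0 and 196 CPM at 4 °C. Each cold library was more than 3 times any library at 30 °C, with no overlap (log2 fold change 2.23 ± 0.28, adjusted p = 0.00352). In sWAT the levels were 110.0, 83.5 and 68.7 CPM at 30 °C and 80.7, 196 and 134 CPM at 4 °C, and the groups overlapped, with cold library 1 within the range at 30 °C (log2 fold change 0.63 ± 0.35, adjusted p = 0.162). The response was smaller in sWAT than in BAT (difference of log2 fold changes −1.52 ± 0.46, adjusted p = 0.0287). Slc3a2 passed in BAT under each of the 17 alternatives that were run for that comparison.

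Slc7a5 was the sole member called lower in cold in sWAT, by 3.67-fold. Its sWAT levels were 16.3, 5.79 and 10.4 CPM at 30 °C and 4.72, 2.03 and 2.04 CPM at 4 °C. All 3 cold libraries lay below all libraries at 30 °C (log2 fold change −1.88 ± 0.49, adjusted p = 0.0133). BAT held far less of it, 0.464, 0.279 and 0.608 CPM at 30 °C and 0.623, 0.814 and 0.637 CPM at 4 °C, and there the groups did not overlap, with cold slightly above (log2 fold change 0.66 ± 0.42, adjusted p = 0.328). The responses differed (sWAT minus BAT −2.48 ± 0.67, adjusted p = 0.0173). The sWAT call was not made when an offset for GC content was used (log2 fold change −1.11, adjusted p = 0.108) or without library 3 in cold (adjusted p = 0.0519), and without cold library 1 the difference of responses was −3.25. Of the 15 lymphocyte markers 7 were also lower in cold in sWAT, and their part in the Slc7a5 values was not tested. Slc7a8 was at 3.21, 5.70 and 9.19 CPM at 30 °C and 8.05, 10.4 and 9.79 CPM at 4 °C in BAT. In sWAT its levels were 8.68, 3.58 and 5.50 CPM at 30 °C and 16.0, 7.92 and 10.6 CPM at 4 °C. Its groups overlapped in both tissues and neither response passed (log2 fold change 0.68 ± 0.39, adjusted p = 0.285 in BAT and log2 fold change 0.96 ± 0.41, adjusted p = 0.0804 in sWAT).

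Transamination is the first, reversible step, and mouse tissues use a mitochondrial enzyme, Bcat2, and a cytosolic one, Bcat1. Neither gene was called in cold in either tissue. Bcat2 was at 87.0, 101 and 38.4 CPM at 30 °C and 109, 102 and 66.6 CPM at 4 °C in BAT, where the groups overlapped (log2 fold change 0.34 ± 0.39, adjusted p = 0.593). In sWAT it was at 273, 211 and 212 CPM at 30 °C and 152, 147 and 139 CPM at 4 °C. All 3 cold libraries of sWAT lay below those at 30 °C, and the difference missed the threshold (log2 fold change −0.67 ± 0.26, adjusted p = 0.0594). It passed with DESeq2, limma-voom, upper quartile scaling and without cold library 1, but with a GC offset the value was −0.18 (adjusted p = 0.563). Bcat1 was low throughout, 1.46, 0.810 and 1.22 CPM at 30 °C and 1.25, 1.48 and 1.54 CPM at 4 °C in BAT and 3.53, 2.43 and 4.53 CPM at 30 °C and 2.13, 1.61 and 2.04 CPM at 4 °C in sWAT. The Bcat1 groups in sWAT did not overlap either, with cold lower (log2 fold change −0.86 ± 0.36, adjusted p = 0.0744). Per kb of transcript, Bcat2 exceeded Bcat1 118.9-fold to 468.3-fold in the 12 libraries, and the mitochondrial form made up nearly all aminotransferase transcript in both tissues. Bcat2 shares 16.0% of its exon bases with an antisense gene, and whether counting used strand is not given.

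BCKDH is built from an E1 enzyme with subunits encoded by Bckdha and Bckdhb, the E2 transacylase core encoded by Dbt, and an E3 enzyme, Dld, shared with other dehydrogenases. Dbt rose in both tissues, 3.94-fold in BAT and 9.43-fold in sWAT. In BAT its levels were 53.7, 84.1 and 99.8 CPM at 30 °C and 265, 236 and 407 CPM at 4 °C, with no overlap (log2 fold change 1.98 ± 0.35, adjusted p = 0.0116). In sWAT they were 14.2, 12.5 and 24.5 CPM at 30 °C and 120.0, 176 and 190.4 CPM at 4 °C, again with no overlap (log2 fold change 3.24 ± 0.36, adjusted p = 0.000398). The BAT call was lost without library 2 at 30 °C (adjusted p = 0.0570) and held under the other 16 alternatives. The sWAT response was smaller with a GC offset (2.20) and still called. The difference between the 2 responses missed the threshold (1.32 ± 0.49, adjusted p = 0.0623).

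Of the E1 subunits, Bckdhb was called in sWAT and Bckdha in neither tissue. Bckdhb was at 40.8, 34.9 and 38.0 CPM at 30 °C and 63.3, 68.4 and 86.0 CPM at 4 °C in sWAT, where every cold library was higher (log2 fold change 0.93 ± 0.23, adjusted p = 0.00987), and the call was lost without cold library 3 (adjusted p = 0.0515). In BAT Bckdhb was at 86.5, 79.4 and 78.7 CPM at 30 °C and 92.6, 82.7 and 114 CPM at 4 °C, where 2 of the 3 cold libraries lay above those at 30 °C and library 2 lay among them (log2 fold change 0.29 ± 0.24, adjusted p = 0.467). Bckdha had the highest level per kb of the 29 genes in 3 of the 4 groups, and its replicates spread widely. It was at 563, 574 and 160.0 CPM at 30 °C and 665, 588 and 181 CPM at 4 °C in BAT. Library 3 was low at both temperatures, and the groups overlapped (log2 fold change 0.19 ± 0.58, adjusted p = 0.861). In sWAT it was at 474, 379.7 and 232 CPM at 30 °C and 163, 512 and 417 CPM at 4 °C, with overlapping groups (log2 fold change −0.00 ± 0.46, adjusted p = 0.9998). Bckdha shares 61.7% of its exon bases with B3gnt8 on the opposite strand, so reads of the 2 genes may not have been told apart.

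The activity of BCKDH is set by Bckdk, the kinase that inactivates it, and Ppm1k, the phosphatase that reactivates it. Both were higher in cold in sWAT and neither was called in BAT. Ppm1k was at 2.76, 2.75 and 7.11 CPM at 30 °C and 19.3, 18.0 and 19.0 CPM at 4 °C in sWAT, a 4.43-fold rise with no overlap (log2 fold change 2.15 ± 0.41, adjusted p = 0.00327). In BAT it was at 15.4, 21.6 and 27.2 CPM at 30 °C and 17.1, 15.02 and 29.9 CPM at 4 °C, with overlapping groups (log2 fold change −0.01 ± 0.35, adjusted p = 0.993). The responses differed between the tissues (2.21 ± 0.55, adjusted p = 0.0125). With a GC offset the sWAT value was 0.80 (adjusted p = 0.0797), and leaving out library 3 at 30 °C, the highest of its group, gave 2.78. The difference of responses was 2.82 without that library and was not called without BAT library 1 or 2 in cold (largest adjusted p = 0.0583).

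Bckdk was at 88.0, 54.5 and 52.2 CPM at 30 °C and 111, 166 and 139 CPM at 4 °C in sWAT, with every cold library higher (log2 fold change 1.09 ± 0.30, adjusted p = 0.0156). That call was lost when sWAT library 2 or 3 at 30 °C or library 2 in cold was left out (largest adjusted p = 0.0693). In BAT Bckdk was at 107, 151 and 108 CPM at 30 °C and 177, 189.9 and 131 CPM at 4 °C, with overlapping groups (log2 fold change 0.49 ± 0.28, adjusted p = 0.287). The ratio of Bckdk to Ppm1k CPM was 31.9, 19.9 and 7.34 in sWAT at 30 °C and 5.77, 9.24 and 7.34 in sWAT at 4 °C. In BAT it was 6.97, 7.01 and 3.96 at 30 °C and 10.4, 12.6 and 4.39 at 4 °C. The ratio overlapped between temperatures in both tissues, and the 2 highest values belong to sWAT libraries 1 and 2 at 30 °C.

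**Figure D2:**
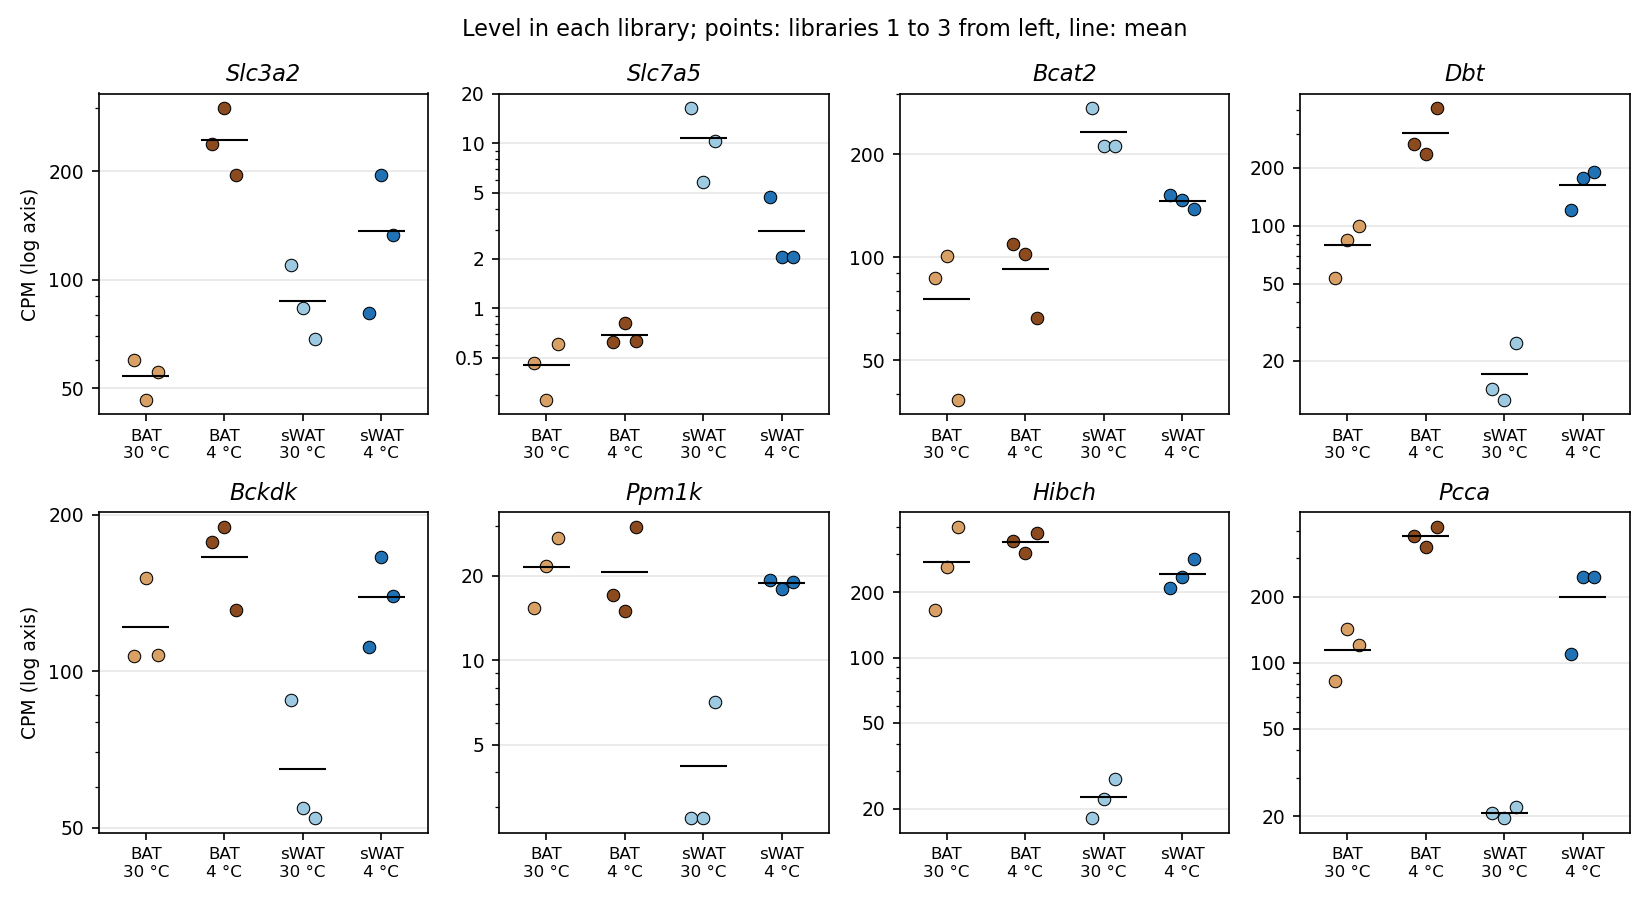
CPM (log axis) of 8 genes in each of the 12 libraries, with points for libraries 1 to 3 from left to right in each of the 4 groups and a line at the group mean. Slc3a2 separates the temperatures in BAT, Dbt and Pcca in both tissues, and Ppm1k and Hibch in sWAT, while Slc7a5 and Bcat2 are higher in sWAT than in BAT at 30 °C.

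The leucine branch runs from Ivd, isovaleryl-CoA dehydrogenase, through the 2 subunits of methylcrotonyl-CoA carboxylase, Mccc1 and Mccc2, to Auh, a hydratase. Both carboxylase subunits rose in sWAT. Mccc1, the biotin-bearing subunit, was at 47.0, 45.9 and 41.8 CPM at 30 °C and 123, 151 and 142 CPM at 4 °C in sWAT, 3.09-fold higher with no overlap (log2 fold change 1.63 ± 0.23, adjusted p = 0.000893). In BAT it was at 71.3, 107 and 100.5 CPM at 30 °C and 180.2, 175 and 155 CPM at 4 °C, also with no overlap, and just missed the threshold (log2 fold change 0.91 ± 0.27, adjusted p = 0.0596). It was called in BAT under 7 of 17 alternatives, among them DESeq2 and the fit without the pair numbered 3 (1.03, adjusted p = 0.00391). With a GC offset the sWAT value was 0.68 (adjusted p = 0.0754).

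Mccc2 was also called in sWAT, but not under 7 of 16 alternatives, among them the fits without library 2 or 3 of either temperature (adjusted p up to 0.130). Its sWAT levels were 65.5, 55.4 and 46.5 CPM at 30 °C and 73.9, 101 and 107 CPM at 4 °C, higher in each cold library (log2 fold change 0.75 ± 0.25, adjusted p = 0.0362). In BAT the levels were 59.9, 83.2 and 94.9 CPM at 30 °C and 131, 122 and 111 CPM at 4 °C, again higher in each cold library, without a call (log2 fold change 0.66 ± 0.27, adjusted p = 0.146). Ivd ran from 120.2 to 221.4 CPM in BAT and from 208.2 to 234.5 CPM in sWAT and was called in neither (log2 fold change 0.33 ± 0.30, adjusted p = 0.493 and log2 fold change −0.03 ± 0.25, adjusted p = 0.936). Auh ran from 49.2 to 90.9 CPM in BAT and from 38.1 to 60.9 CPM in sWAT, with no call in cold (log2 fold change −0.36 ± 0.27, adjusted p = 0.403 and log2 fold change 0.01 ± 0.27, adjusted p = 0.975).

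In the isoleucine and valine branch 5 of 7 genes were called higher in sWAT and 0 of 7 were called in BAT. Over all genes tested, 25.1% were called higher in sWAT and 6.82% in BAT. With a GC offset Acat1, Hibch and Aldh6a1 were still called in sWAT, and Acadsb and Hibadh were not. Hibch, which frees 3-hydroxyisobutyrate from its CoA ester in valine breakdown, rose most, 10.8-fold in sWAT. Its sWAT levels were 18.1, 22.2 and 27.5 CPM at 30 °C and 209.7, 236 and 284 CPM at 4 °C, with each cold library far above any at 30 °C (log2 fold change 3.43 ± 0.30, adjusted p = 0.000219). In BAT they were 166, 263 and 403 CPM at 30 °C and 347, 305 and 377 CPM at 4 °C, with overlapping groups (log2 fold change 0.35 ± 0.35, adjusted p = 0.543). The difference of responses was 3.13 ± 0.46, adjusted p = 0.00102, and it was called under each of the 22 alternatives run, at 2.44 with a GC offset.

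The next enzymes of valine breakdown are Hibadh, which oxidises 3-hydroxyisobutyrate, and Aldh6a1, which turns methylmalonate semialdehyde into propionyl-CoA. Aldh6a1 was at 80.9, 94.5 and 101 CPM at 30 °C and 445, 286 and 389 CPM at 4 °C in sWAT, with no overlap (log2 fold change 2.02 ± 0.30, adjusted p = 0.00115). In BAT it was at 303, 539 and 452 CPM at 30 °C and 340.3, 300.1 and 469 CPM at 4 °C, with overlap (log2 fold change −0.18 ± 0.32, adjusted p = 0.75), and the responses differed (2.25 ± 0.43, adjusted p = 0.00347). With a GC offset the sWAT value of Aldh6a1 was 0.95 (adjusted p = 0.0149), and 18.6% of its exon bases are shared with Bbof1 on the opposite strand. Hibadh was at 80.2, 123 and 107 CPM at 30 °C and 215, 217 and 311 CPM at 4 °C in sWAT, also with no overlap (log2 fold change 1.27 ± 0.30, adjusted p = 0.0078). Its BAT levels were 273, 386 and 282 CPM at 30 °C and 290.3, 236 and 346 CPM at 4 °C, with overlap (log2 fold change −0.07 ± 0.29, adjusted p = 0.9), and the difference passed (1.39 ± 0.40, adjusted p = 0.0249). Hibadh has the lowest GC content of the 29 transcripts, 39.5%, and with a GC offset its sign in sWAT turned (−0.20, adjusted p = 0.604).

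On the isoleucine side Acadsb makes tiglyl-CoA, Hsd17b10 oxidises 2-methyl-3-hydroxybutyryl-CoA and is also part of mitochondrial RNase P, and Acat1 is the thiolase that splits the product. Acat1 was at 143, 144 and 108 CPM at 30 °C and 413, 667 and 696 CPM at 4 °C in sWAT, 4.49-fold higher with no overlap (log2 fold change 2.17 ± 0.33, adjusted p = 0.00124). Its BAT levels were 338, 594 and 764 CPM at 30 °C and 981, 918 and 858 CPM at 4 °C. The cold libraries of BAT all lay above those at 30 °C, without a call (log2 fold change 0.74 ± 0.34, adjusted p = 0.189). The difference of responses passed (1.48 ± 0.47, adjusted p = 0.0366), but it was called under only 7 of 22 alternatives.

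Acadsb was at 39.1, 48.1 and 49.2 CPM at 30 °C and 142, 113 and 130.3 CPM at 4 °C in sWAT, with no overlap (log2 fold change 1.503 ± 0.24, adjusted p = 0.00153). In BAT it was at 114, 179 and 159.6 CPM at 30 °C and 122, 104 and 212 CPM at 4 °C, with overlap (log2 fold change −0.00 ± 0.35, adjusted p = 0.999), and the responses differed (1.56 ± 0.42, adjusted p = 0.0169). With a GC offset its sWAT value was 0.50 (adjusted p = 0.0699). Hsd17b10 had the lowest log2 fold change of the 29 genes in BAT. It was at 138, 149 and 98.3 CPM at 30 °C and 71.7, 64.9 and 51.8 CPM at 4 °C there, with each cold library below any at 30 °C, and missed the threshold (log2 fold change −0.99 ± 0.28, adjusted p = 0.0518). It was called lower in BAT under 8 of 17 alternatives. In sWAT it was at 66.6, 46.2 and 36.3 CPM at 30 °C and 52.3, 68.8 and 78.5 CPM at 4 °C, with overlap (log2 fold change 0.42 ± 0.29, adjusted p = 0.259), and the difference of responses passed (1.46 ± 0.40, adjusted p = 0.019) and stayed at 1.52 with a GC offset. Acad8, the isobutyryl-CoA dehydrogenase of valine breakdown, ran from 32.7 to 69.8 CPM in BAT and from 24.4 to 52.5 CPM in sWAT and was called in neither (log2 fold change 0.49 ± 0.29, adjusted p = 0.291 and log2 fold change 0.68 ± 0.31, adjusted p = 0.0974).

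The propionyl-CoA route held 3 of the 5 genes called in BAT and 5 of the 17 called higher in sWAT. These are 3 and 5 of its 6 genes, beside 6.82% and 25.1% of all genes called higher. Pcca and Pccb encode the subunits of propionyl-CoA carboxylase. Mcee is the epimerase and Mut the vitamin B12-dependent mutase that makes succinyl-CoA, while Mmaa and Mmab load the cofactor. The median log2 fold change of these 6 genes was 1.02 in BAT and 2.31 in sWAT. Promoter sequence is shown for Pcca, Mcee and Mmab, the 3 members of the route that were called in BAT, since they were higher together. Each runs up to the base before the annotated gene start, 5′ to 3′ on the gene's strand (GRCm38.p6, RefSeq), with GC boxes (GGGCGG) and CCAAT boxes on either strand in capitals. The regions are chr14:122534078-122534323 on the plus strand for Pcca, chr7:64392372-64392606 on the plus strand for Mcee and chr5:114444061-114444277 on the minus strand for Mmab.
Pcca: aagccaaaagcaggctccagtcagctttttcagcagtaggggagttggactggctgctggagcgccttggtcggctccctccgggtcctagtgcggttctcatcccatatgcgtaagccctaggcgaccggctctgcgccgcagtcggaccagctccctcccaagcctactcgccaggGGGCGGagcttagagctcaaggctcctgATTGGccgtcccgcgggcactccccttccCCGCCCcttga
Mcee: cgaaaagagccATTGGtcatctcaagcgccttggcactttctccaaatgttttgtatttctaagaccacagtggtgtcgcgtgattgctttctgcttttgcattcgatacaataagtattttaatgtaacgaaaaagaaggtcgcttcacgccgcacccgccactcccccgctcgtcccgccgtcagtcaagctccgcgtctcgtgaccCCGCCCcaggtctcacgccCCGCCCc
Mmab: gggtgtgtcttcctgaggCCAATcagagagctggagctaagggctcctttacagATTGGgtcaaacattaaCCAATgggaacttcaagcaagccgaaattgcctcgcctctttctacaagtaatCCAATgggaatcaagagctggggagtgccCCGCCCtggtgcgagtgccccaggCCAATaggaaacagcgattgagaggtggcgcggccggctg

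Pcca and Mcee hold 2 GC boxes and 1 CCAAT box each in these stretches, and Mmab holds 1 GC box and 5 CCAAT boxes. RefSeq promoters were matched for 24 of the 29 genes and were searched on both strands over the 250 bases before the start site. A GC box was found for 15 of the 24 genes and a CCAAT box for 14, in 16 of their 30 promoters each, beside 32.7% and 33.9% of all 32851 promoters. Those 2 motifs were searched after 4 others had given 1 match in all. TNAAGGTCA, the extended half-site of estrogen-related receptors, TGATGNAA, an element bound by Atf4, and the cyclic AMP response element TGACGTCA were found for 0 of the 24 genes, beside 1.14%, 3.45% and 1.55% of all promoters. The E-box CACGTG was found for 1 gene, Mccc2, beside 6.02%. A match is a string of letters and was not tested as a binding site.

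Pcca, the biotin-bearing subunit, rose 3.38-fold in BAT and 9.56-fold in sWAT. In BAT its levels were 82.3, 142 and 120.1 CPM at 30 °C and 379, 338 and 417 CPM at 4 °C, with no overlap (log2 fold change 1.76 ± 0.30, adjusted p = 0.0103). In sWAT they were 20.7, 19.6 and 22.1 CPM at 30 °C and 109, 246 and 245 CPM at 4 °C, again with no overlap (log2 fold change 3.26 ± 0.36, adjusted p = 0.000399). Pcca was called in both tissues under each alternative run, 17 in BAT and 16 in sWAT, and with a GC offset its sWAT value was 2.93. The response was larger in sWAT (difference 1.56 ± 0.46, adjusted p = 0.0252), a call lost with a GC offset (1.07, adjusted p = 0.119). The partner subunit Pccb was at 192.8, 149.9 and 119.4 CPM at 30 °C and 193, 433 and 329 CPM at 4 °C in sWAT, where cold library 1 barely cleared the highest library at 30 °C (log2 fold change 1.04 ± 0.36, adjusted p = 0.0397), and 7 of 16 alternatives did not call it, among them each fit without 1 library other than cold library 1 (largest adjusted p = 0.134). Pccb was at 327, 483 and 292 CPM at 30 °C and 532, 524 and 312 CPM at 4 °C in BAT, with overlap (log2 fold change 0.35 ± 0.33, adjusted p = 0.517).

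Mcee was at 64.9, 70.3 and 47.5 CPM at 30 °C and 150.1, 127 and 133 CPM at 4 °C in BAT, 2.32-fold higher in cold with no overlap (log2 fold change 1.21 ± 0.26, adjusted p = 0.0219). In sWAT it was at 25.4, 19.4 and 21.0 CPM at 30 °C and 41.3, 111 and 125 CPM at 4 °C, 4.18-fold higher with no overlap (log2 fold change 2.06 ± 0.40, adjusted p = 0.00334). The BAT call was lost when library 1 or 2 of either temperature was left out (largest adjusted p = 0.0974). Mut was at 14.5, 15.5 and 26.8 CPM at 30 °C and 136, 133 and 148 CPM at 4 °C in sWAT, 7.34-fold higher with no overlap (log2 fold change 2.88 ± 0.31, adjusted p = 0.000381). In BAT it spread widely, 50.6, 109 and 205 CPM at 30 °C and 168, 150.5 and 331 CPM at 4 °C, and the groups overlapped (log2 fold change 0.88 ± 0.52, adjusted p = 0.298). The Mut responses differed (2.05 ± 0.64, adjusted p = 0.0323), and the difference was 1.46 without BAT library 3 at 30 °C (adjusted p = 0.0804).

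Mmab, the adenosyltransferase that makes the cofactor, was called in BAT and not in sWAT, as was Slc3a2, although for Mmab the difference between the 2 responses did not pass (−0.31 ± 0.43, adjusted p = 0.618). In BAT its levels were 30.1, 42.1 and 49.0 CPM at 30 °C and 93.8, 103 and 66.4 CPM at 4 °C, with no overlap (log2 fold change 1.16 ± 0.30, adjusted p = 0.0383). The call was lost under 5 of 17 alternatives, namely upper quartile scaling and the fits without library 1 or 2 of either temperature. In sWAT they were 31.3, 38.6 and 26.2 CPM at 30 °C and 36.2, 73.8 and 56.7 CPM at 4 °C, with overlap (log2 fold change 0.79 ± 0.29, adjusted p = 0.0511). Mmaa, a chaperone that protects the mutase, was called in sWAT and not in BAT. It was at 7.49, 5.71 and 6.33 CPM at 30 °C and 18.8, 45.0 and 52.5 CPM at 4 °C in sWAT, 5.92-fold higher with no overlap (log2 fold change 2.56 ± 0.39, adjusted p = 0.00117), and at 54.1, 48.6 and 41.4 CPM at 30 °C and 67.9, 61.2 and 62.9 CPM at 4 °C in BAT, where cold was higher in each library without a call (log2 fold change 0.46 ± 0.24, adjusted p = 0.231). The Mmaa responses differed (2.17 ± 0.45, adjusted p = 0.00539). With a GC offset the sWAT value was 1.45 (adjusted p = 0.0345) and the difference 0.75 (adjusted p = 0.370), and the sWAT call was lost with the replicate block and GC offset together (adjusted p = 0.105).

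Of the associated enzymes, Oxct1 activates acetoacetate, a product of leucine breakdown, and Abat is a mitochondrial aminotransferase for GABA that also acts on 3-aminoisobutyrate. Oxct1 was at 41.6, 66.3 and 64.2 CPM at 30 °C and 225, 259 and 282 CPM at 4 °C in sWAT, 4.45-fold higher with no overlap (log2 fold change 2.15 ± 0.29, adjusted p = 0.000758). In BAT it was at 159, 244 and 301 CPM at 30 °C and 281, 292 and 347 CPM at 4 °C, with overlap (log2 fold change 0.43 ± 0.31, adjusted p = 0.385). The difference of responses was 1.78 ± 0.41, adjusted p = 0.0087, called under each of the 22 alternatives. Oxct1 shares 12.6% of its exon bases with BC037032 on the opposite strand. Abat was near the lower end of detection, 0.995 to 2.45 CPM in BAT and 1.80 to 3.65 CPM in sWAT, and was called in neither (log2 fold change 0.62 ± 0.41, adjusted p = 0.349 and log2 fold change 0.01 ± 0.39, adjusted p = 0.978).

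Across the set, the difference of log2 fold changes, sWAT minus BAT, was called above 0 for 11 of the 29 genes and below 0 for 2, Slc7a5 and Slc3a2, which is 44.8% of the set beside 25.1% of all 16365 genes tested (17.3% above 0 and 7.85% below 0). The sign of the difference is not a size: Slc7a5 was lower in cold in sWAT and not called in BAT, and the BAT value of Hsd17b10 (−0.99) was larger in size than its sWAT value (0.42). The median difference was 0.75 over the 29 genes and 0.12 over all genes. Of the 11 genes, 6 belong to the 7 of the isoleucine and valine branch and 3 to the 6 of the propionyl-CoA route. This contrast uses the same libraries as the comparisons within each tissue and is not independent of them. With a GC offset 4 of the 13 calls remained (Hibch 2.44, Hsd17b10 1.52, Oxct1 1.40 and Slc3a2 −1.17). Bcat1 was newly called with the offset (−1.60, adjusted p = 0.0221). These 5 calls make up 17.2% of the set beside 20.1% of all genes in that fit. When 1 of the 12 libraries was left out, Hibch, Aldh6a1, Mmaa, Oxct1 and Slc7a5 were called each time. The other 8 calls each depended on more than 1 library, with largest adjusted p of 0.0583 for Ppm1k, 0.0691 for Slc3a2, 0.0776 for Hsd17b10, 0.0923 for Acadsb, 0.0977 for Pcca, 0.114 for Hibadh, 0.115 for Acat1 and 0.119 for Mut. Leaving out BAT library 1 or 2 in cold ended 7 of these 8 calls, all but that of Slc3a2, which was lost without sWAT library 1 or 2 at 30 °C or library 3 in cold.

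More of the genes differed between the tissues at 30 °C than at 4 °C. At 30 °C 19 of the 29 genes were higher in BAT than in sWAT and 4 were lower, which is 79.3% of the set beside 58.7% of all genes tested (29.9% higher and 28.8% lower). The 13 mitochondrially encoded genes and 11 of 15 skeletal muscle markers were also higher in BAT at 30 °C, and 0 of either list at 4 °C, and their part in these values was not tested. At 4 °C 0 of the 29 were higher and 1 was lower, 3.45% of the set beside 12.3% of all genes (1.19% higher and 11.1% lower). At an unadjusted p under 0.05, 6 genes passed at 4 °C, with no share of all genes given at that threshold. Of genes higher in BAT at 4 °C, DESeq2 called 3 and limma-voom 0. The median log2 ratio of BAT to sWAT was 1.13 at 30 °C and 0.30 at 4 °C over the set, and 0.03 and −0.03 over all genes. The groups did not overlap for 25 genes at 30 °C and 13 at 4 °C, beside 65.9% and 35.0% of all genes tested.

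**Figure D3:**
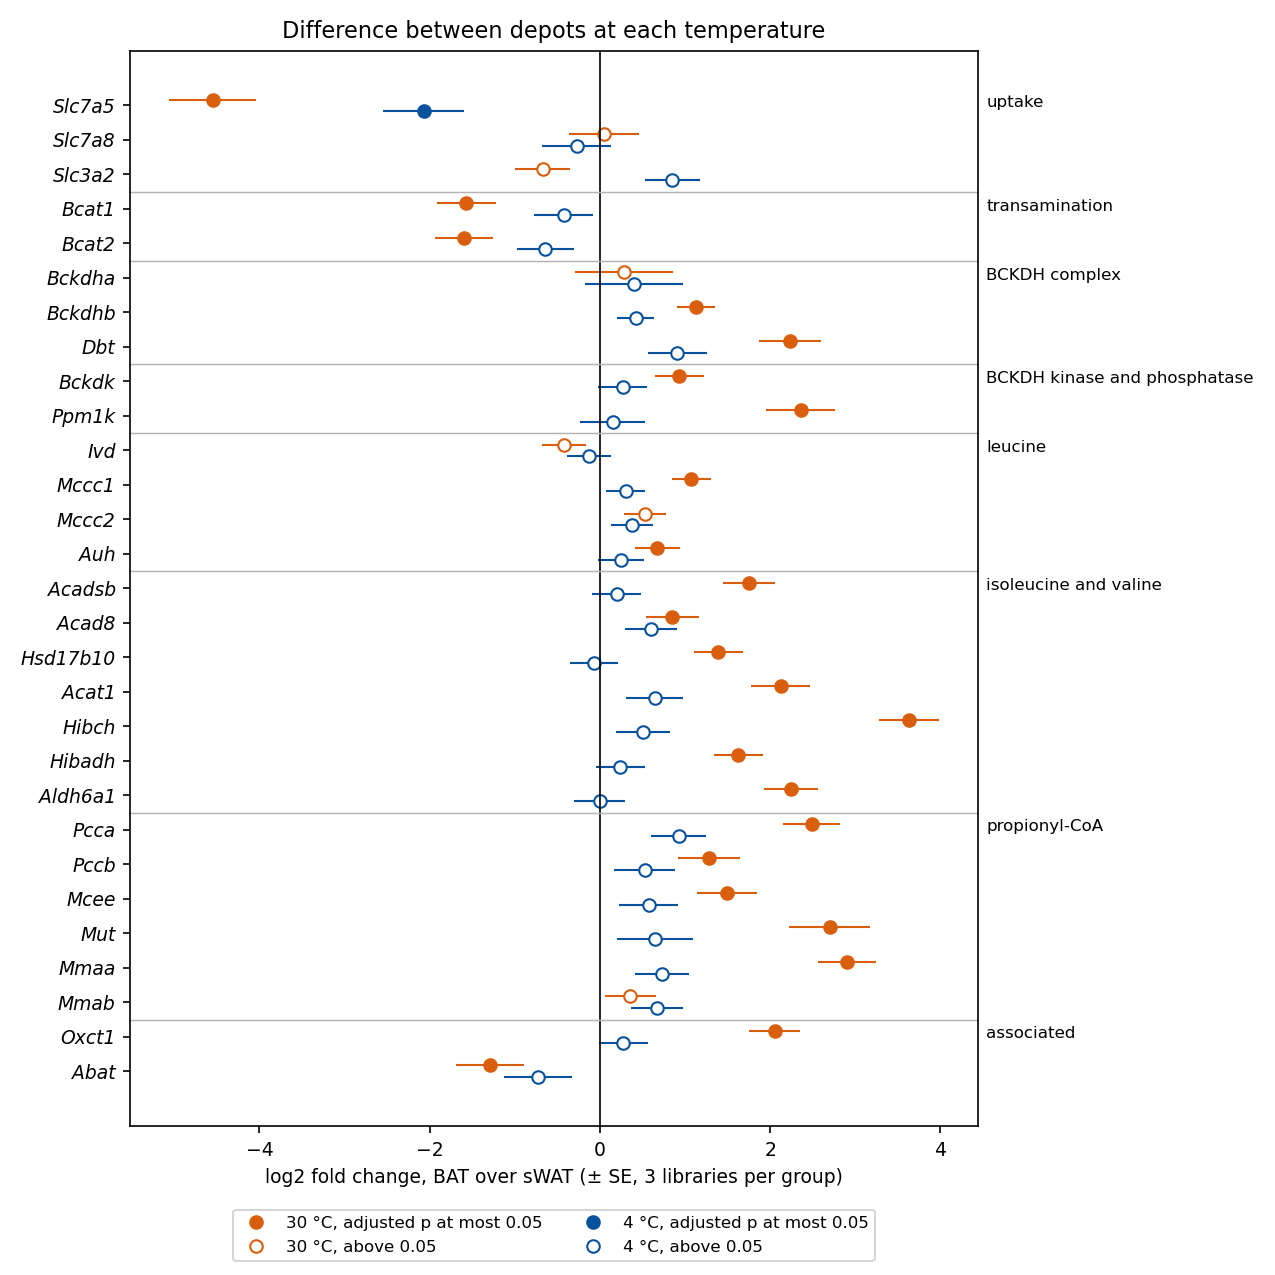
Log2 ratio of BAT to sWAT for each of the 29 genes at 30 °C (orange) and at 4 °C (dark blue), with bars for the SE and 3 libraries per group, grouped by role. Filled points passed an adjusted p of 0.05: 23 at 30 °C, of which 19 lie to the right of 0, and 1 at 4 °C, Slc7a5, to the left.

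At 30 °C all 7 genes of the isoleucine and valine branch were higher in BAT, beside 29.9% of all genes tested. Hibch had the largest ratio, 12.4-fold (log2 fold change 3.63 ± 0.35, adjusted p = 5.18e-06). In the propionyl-CoA route 5 of 6 were higher, led by Mmaa (log2 fold change 2.91 ± 0.34, adjusted p = 1.81e-05) and Mut (log2 fold change 2.70 ± 0.48, adjusted p = 0.000368). Both BCKDH regulators were higher in BAT, Ppm1k (log2 fold change 2.36 ± 0.41, adjusted p = 0.000312) more than Bckdk (log2 fold change 0.93 ± 0.29, adjusted p = 0.0137), and so were Dbt (log2 fold change 2.23 ± 0.36, adjusted p = 0.000195) and Bckdhb (log2 fold change 1.13 ± 0.22, adjusted p = 0.000815). The 4 genes lower in BAT were both aminotransferases, Bcat2 (log2 fold change −1.60 ± 0.34, adjusted p = 0.00141) and Bcat1 (log2 fold change −1.57 ± 0.35, adjusted p = 0.00177), the carrier Slc7a5 (log2 fold change −4.55 ± 0.51, adjusted p = 1.39e-05) and Abat (log2 fold change −1.29 ± 0.41, adjusted p = 0.0149). Slc7a5 was 23.4-fold lower in BAT at 30 °C and 4.19-fold lower at 4 °C (log2 fold change −2.07 ± 0.47, adjusted p = 0.0108), where the call was lost when any 1 of the 3 BAT libraries in cold, or sWAT library 1 in cold, was left out (largest adjusted p = 0.111). All 15 lymphocyte markers were lower in BAT at both temperatures, with BAT sums of 4.37 to 12.7 CPM, and their part in the Slc7a5 difference was not tested. Of the 23 calls at 30 °C, 18 were made under each of the 22 alternatives, which include the GC offset. With the offset Hibadh was at 0.22 (adjusted p = 0.506), Acad8 at 0.07 (adjusted p = 0.883) and Mccc1 at 0.13 (adjusted p = 0.706), none of them called. Mmaa was at 1.77, Mut at 1.61, Dbt at 1.18 and Ppm1k at 1.07 with it, still called. Without 1 library the calls of Bckdk, Auh and Acad8 were lost in some fits (largest adjusted p of 0.0738, 0.165 and 0.119), Ppm1k was at 2.97 without sWAT library 3 at 30 °C, and Mut at 2.11 without BAT library 3 at 30 °C. Auh (adjusted p = 0.0442 in the main fit) was called under only 8 of the 22 alternatives. DESeq2, the replicate block and the fits without a filter or without mitochondrially encoded genes did not call it. At 4 °C the offset called 6 genes higher in BAT (Bckdhb, Dbt, Mccc2, Pcca, Mmab and Slc3a2), with log2 ratios from 0.70 to 1.18, and with Slc7a5 these calls make up 24.1% of the set beside 23.7% of all genes in that fit.

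Levels can be compared between genes only per transcript length. Per kb of the longest transcript and as mean ± SD of 3 libraries, Bckdha led in BAT at 30 °C with 228 ± 124 CPM per kb, and Acat1 with 166 ± 63.0 and Pccb with 158 ± 44.0 came next. The SDs of these 3 levels overlapped. At 4 °C in BAT Acat1 (270.0 ± 18.1 CPM per kb), Bckdha (252 ± 137) and Pccb (196 ± 53.7) led. In sWAT at 30 °C Bckdha was at 190.5 ± 64.3 CPM per kb and Bcat2 at 112 ± 16.97, while Hibch was at 6.00 ± 1.26, Dbt at 5.17 ± 1.97 and Mut at 5.15 ± 1.85. At 4 °C in sWAT Bcat2 was at 70.0 ± 3.14 and Hibch at 64.6 ± 9.99 CPM per kb, and these 2 levels lay within their SDs of each other. Bcat1, Abat and Slc7a5 were at most 3.08 CPM per kb in every group.

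Within sWAT the size of the response went with the base composition of the transcripts. Over the 29 genes, GC content ran from 39.5% to 57.9%, and the log2 fold change in sWAT had a Spearman correlation of −0.66 with it, beside −0.51 over 15331 genes. The points share libraries and are given as a description. In BAT the values were 0.12 over the 29 genes and 0.11 over all. With an offset for GC content the sWAT correlation over the 29 genes was −0.14, 13 of the 18 calls remained, and 4 genes were newly called (Slc3a2, Slc7a8 and Mmab higher and Bcat1 lower). The median response of the set was 0.95 with the offset and 1.04 without. The median GC content of the set, 49.7%, was near that of all genes tested, 49.9%. The median response therefore does not show how far single genes depend on the offset. Hibadh went from 1.27 to −0.20 and Ppm1k from 2.15 to 0.80, while Bckdha went from −0.00 to 0.81. Dbt, Acat1, Hibch, Aldh6a1, Pcca, Mcee, Mut and Oxct1 were called in sWAT under each of the 16 alternatives, the offset among them.

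**Figure D4:**
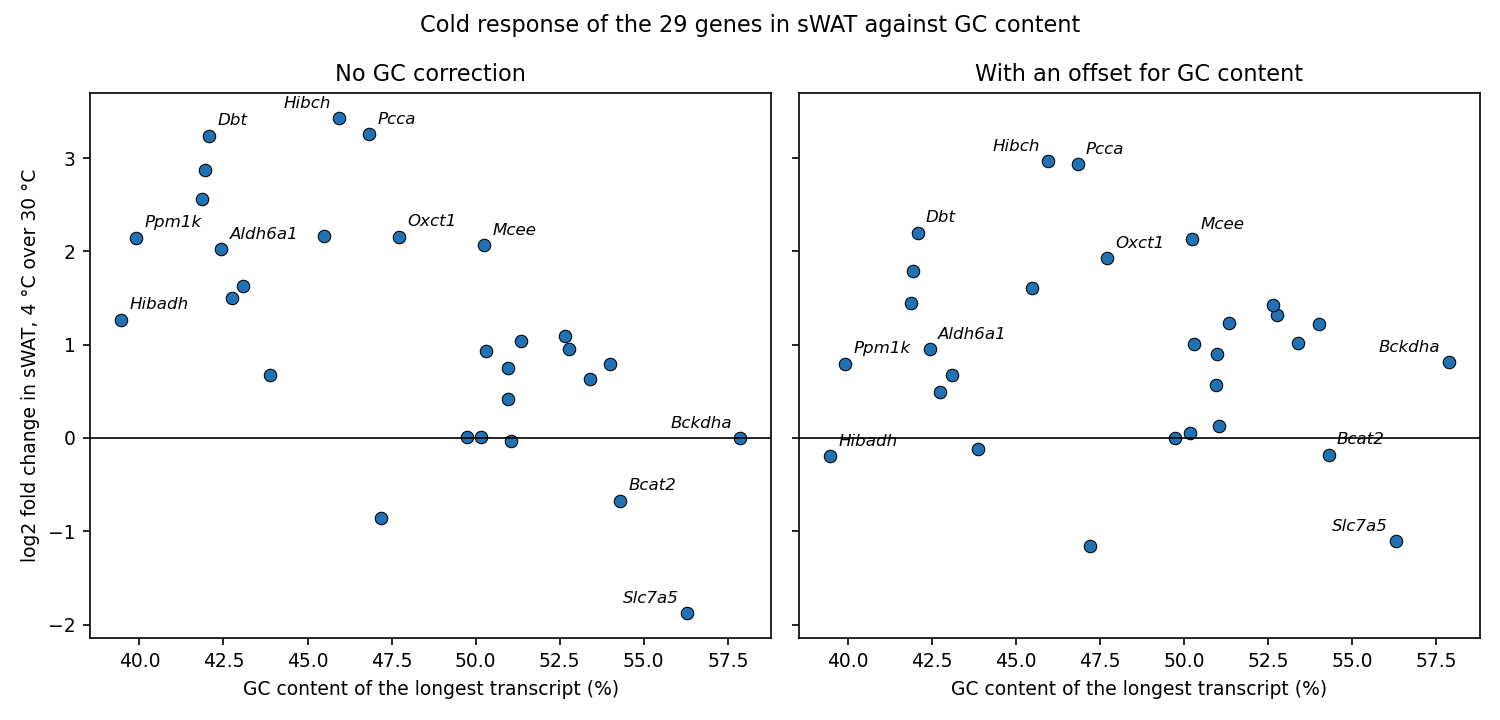
Log2 fold change in sWAT, 4 °C over 30 °C, of each of the 29 genes against the GC content of its longest transcript (%), without a correction (left) and with an offset for GC content (right). On the left the genes of low GC content lie higher, and on the right Hibadh and Acad8 are below 0 while Hibch and Pcca stay near 3.

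Other genes of the pathway were taken from 2 further lists. Of 22 tested carriers, cofactor enzymes and regulators, 10 were higher in BAT and 0 lower, and in sWAT 9 were higher and 2 lower, 45.5% and 50% of the list beside 12.2% and 49.2% of all genes tested. Slc25a44, the mitochondrial carrier for branched-chain amino acids, was higher in cold in both tissues. It was at 75.4, 103 and 80.8 CPM at 30 °C and 201, 200.2 and 191 CPM at 4 °C in BAT and 66.5, 55.3 and 41.9 CPM at 30 °C and 106, 136 and 124 CPM at 4 °C in sWAT, with no overlap in either (log2 fold change 1.23 ± 0.26, adjusted p = 0.0188 and log2 fold change 1.16 ± 0.26, adjusted p = 0.0065). Its BAT call was lost without library 1 or 2 of either temperature (largest adjusted p = 0.0880), as was that of Lipt1 below (largest adjusted p = 0.0901). Slc43a2, another carrier of these amino acids, was at 14.4, 16.5 and 14.5 CPM at 30 °C and 109, 105 and 85.8 CPM at 4 °C in BAT, 6.81-fold higher with no overlap (log2 fold change 2.77 ± 0.26, adjusted p = 0.00118). Its sWAT levels were 46.8, 35.9 and 36.4 CPM at 30 °C and 44.8, 85.5 and 66.4 CPM at 4 °C, with overlap. The difference of its responses, sWAT minus BAT, was called (−1.99, adjusted p = 0.00293). The carrier Slc7a6 was at 97.8, 66.55 and 49.95 CPM at 30 °C and 170.1, 181 and 192.1 CPM at 4 °C in BAT (log2 fold change 1.39, adjusted p = 0.0219). That call was lost without library 2 at 30 °C or library 1 or 2 in cold. In sWAT its levels were 16.6, 14.5 and 22.5 CPM at 30 °C and 44.7, 110.6 and 88.6 CPM at 4 °C. Lipt1, which attaches lipoate to 2-oxo acid dehydrogenases, was higher in BAT (log2 fold change 1.31 ± 0.28, adjusted p = 0.0201) and in sWAT (log2 fold change 3.21 ± 0.30, adjusted p = 0.000264). Mmachc, which processes vitamin B12, was higher in sWAT (log2 fold change 3.02 ± 0.29, adjusted p = 0.000264). In BAT Mmachc was at 21.1, 35.6 and 54.3 CPM at 30 °C and 86.0, 129 and 178 CPM at 4 °C, also higher in each cold library. Klf15, a transcription factor known in mouse muscle for activating branched-chain amino acid breakdown, was at 23.3, 32.9 and 30.1 CPM at 30 °C and 74.3, 74.7 and 22.5 CPM at 4 °C in BAT, where cold library 3 was as low as those at 30 °C (log2 fold change 1.03 ± 0.44, adjusted p = 0.159). In sWAT it was at 110.1, 118 and 106 CPM at 30 °C and 39.7, 73.2 and 56.1 CPM at 4 °C, lower in each cold library (log2 fold change −0.99 ± 0.27, adjusted p = 0.0148). That call was lost with a GC offset (−0.46, adjusted p = 0.134), with the replicate block and GC offset (adjusted p = 0.158) and without cold library 3.

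Of 22 tested enzymes that the pathway shares with others, 4 were higher in BAT and 0 lower, and 9 were higher and 5 lower in sWAT, 18.2% and 63.6% of the list beside the same shares of all genes. Dld, the shared E3 subunit, had the largest rise among them in sWAT, 26.3-fold. It was at 20.7, 18.1 and 30.4 CPM at 30 °C and 519, 549 and 757 CPM at 4 °C in sWAT, with no overlap (log2 fold change 4.72 ± 0.38, adjusted p = 0.000198), and at 378, 576 and 702 CPM at 30 °C and 867, 691 and 2131 CPM at 4 °C in BAT, where cold library 3 was over 2 times the others (log2 fold change 1.20 ± 0.47, adjusted p = 0.131, and 0.54 without that library). Hadha, a subunit of the mitochondrial trifunctional protein, was higher in BAT (log2 fold change 1.97 ± 0.30, adjusted p = 0.00722) and in sWAT (log2 fold change 2.93 ± 0.55, adjusted p = 0.00299). Its partner Hadhb was higher in sWAT (log2 fold change 3.20 ± 0.42, adjusted p = 0.000698), with a value of 1.69 under a GC offset, and its BAT value did not pass (log2 fold change 0.82 ± 0.30, adjusted p = 0.113). The Hadhb call in sWAT was lost with the replicate block and GC offset together (adjusted p = 0.0850). Ehhadh, a peroxisomal bifunctional enzyme, was higher in BAT (log2 fold change 1.57 ± 0.24, adjusted p = 0.00671) and sWAT (log2 fold change 2.06 ± 0.32, adjusted p = 0.00129). So was Hmgcs1, the cytosolic HMG-CoA synthase (log2 fold change 1.52 ± 0.30, adjusted p = 0.0162 in BAT and log2 fold change 2.90 ± 0.29, adjusted p = 0.000308 in sWAT), with the BAT call lost without library 1 or 2 at 30 °C or library 1 in cold (largest adjusted p = 0.0705). Oxct2b, a testis form of the ketone body enzyme, had 0 counts in the 3 BAT libraries at 30 °C and 0.534, 0.935 and 0.503 CPM in cold, and was called in BAT. Il4i1, an amino acid oxidase of immune cells, was lower in sWAT (log2 fold change −2.93 ± 0.27, adjusted p = 0.000257), in the libraries in which lymphocyte markers were lower. Of 22 citric acid cycle genes 3 were higher in BAT and 18 in sWAT, 13.6% and 81.8% of that list. Of 34 nuclear-encoded respiratory chain genes 0 were called in BAT. There 3 were at an unadjusted p under 0.05, with no share of all genes given at that threshold. In sWAT 13 of the 34 were higher, 38.2% of that list. Over all genes tested, 12.2% were called in BAT and 49.2% in sWAT.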

How the data were processed

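The table the authors deposited holds raw counts per gene (23163 genes, whole numbers, not normalized) for 12 libraries, made from 1000 ng of total RNA and read as pairs of 100 nt, per the labels' protocols. STAR, DESeq2 and the mm10 build are named in the submitters' processing notes, without versions, and no source used here gives the counting tool, strand setting or annotation. Columns left without a sample numbered 0. The columns of 2 libraries (cold BAT 1 and cold sWAT 2) are headed Merged, with no explanation. No libraries were duplicates. In R 4.3.3, edgeR 4.0.16 (limma 3.58.1) compared groups after filterByExpr and TMM scaling, with Benjamini-Hochberg adjustment over all genes tested and a threshold of 0.05. Cold was compared with 30 °C within each tissue (6 libraries). A fit of all 12 libraries gave the difference of responses and both comparisons of tissues, so comparisons share samples. The fits were run on simulated counts in which a small set of genes was changed, without a GC trend or a shift in library makeup. That run therefore cannot speak to these features of the sWAT libraries. An SE is the size of the log2 fold change over the root of its F statistic. Printed CPM use TMM factors over 12 libraries. GC content and lengths are of the longest GENCODE M21 transcript, matched by symbol for 96.0% of genes and all 29 members. The GC offset is a lowess trend per library. Alternatives were other scalings, no filter, DESeq2 1.42.0, limma-voom, no mitochondrially encoded genes, the GC offset, a replicate block, a joint fit and leaving out libraries. Members, lists, tests and motifs were chosen with earlier results of these data known. All 29 members were named, with values per library for those called in cold or in the difference and for paired isozymes or regulators. Of the further lists, Slc25a44, Dld, Klf15 and up to 6 called genes per tissue with the smallest adjusted p were named, and Slc7a6 was added as a carrier.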

Additional observations from a re-analysis of the deposited data

Results flagged for a closer look

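For 13 of the 29 genes the response to cold differed between the tissues by the test of the difference itself, edgeR's quasi-likelihood test of sWAT minus BAT over 12 libraries (log2 scale). That is 44.8% of the set, beside 25.1% of all 16365 genes tested. With a GC offset 4 of the 13 calls remained, and 17.2% of the set was called beside 20.1% of all genes. The difference was above 0 for Hibch (3.13), Aldh6a1 (2.25), Ppm1k (2.21), Mmaa (2.17), Mut (2.05), Oxct1 (1.78), Pcca (1.56), Acadsb (1.56), Acat1 (1.48), Hsd17b10 (1.46) and Hibadh (1.39). It was below 0 for Slc7a5 (−2.48), which was lower in cold in sWAT (−1.88) and not called in BAT (0.66), and for Slc3a2 (−1.52), which was higher in BAT (2.23) and not called in sWAT (0.63). For Hsd17b10 neither response passed within its own tissue, and the values were −0.99 in BAT and 0.42 in sWAT. Mitochondrially encoded transcripts and skeletal muscle markers were also higher in cold in sWAT, for 13 of 13 and 11 of 15 genes, and their part in these differences was not tested.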

How the results depend on the processing

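Over the 141 values of single genes that passed in at least 1 setting, 2460 alternatives kept direction and side of the threshold, 94 newly passed, 212 no longer passed and 10 changed sign. A further 56 values of the 29 genes passed in no setting, and 22 of them changed sign in some. In BAT the higher genes (5) became 8 with the replicate block and GC offset and 10 without both libraries numbered 3, with 2 to 6 when 1 library was left out. The lower genes (0) became 1 with DESeq2, upper quartile scaling, the GC offset, the replicate block, both of these, the fit of 12 libraries and without both libraries numbered 3, with 0 to 1 when 1 library was left out. In sWAT the lower genes (1) became 2 with upper quartile scaling, DESeq2, limma-voom, the replicate block with GC offset and the fit of 12 libraries, with 0 to 2 when 1 library was left out, and the higher genes (17) became 12 with the block and offset and ran from 14 to 20 in fits without 1 library. For the difference of responses, genes above 0 (11) became 3 with the GC offset and 3 with the replicate block and GC offset, and ran from 4 to 11 when 1 library was left out. Genes below 0 (2) became 1 with the block and offset and ran from 1 to 3. Between tissues at 4 °C the higher genes (0) became 3 with DESeq2, 6 with the GC offset, 1 with the replicate block and 6 with both, with 0 to 2 when 1 library was left out, and the lower gene (1) ran from 0 to 1. Between tissues at 30 °C, higher genes ran from 16 to 19 and lower genes from 4 to 5 when 1 library was left out.

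Among values that passed in at least 1 setting, signs changed for Acad8 in sWAT (−0.12 with the GC offset, −0.19 with the block and offset), Hibadh in sWAT (−0.20 and −0.23), Hibadh in the difference (−0.36 and −0.38), Dbt in the difference (−0.034 with the block and offset), Bckdha between tissues at 30 °C (−0.0315 without BAT library 2 at 30 °C, and up to 0.694 when another library was left out) and Slc3a2 in the same comparison (0.0137 with the offset, 0.0156 with the block and offset). Among those that passed in none, the range over alternatives crossed 0 in BAT for Bckdha (−0.22 to 0.59), Ppm1k (−0.37 to 0.17), Acadsb (−0.37 to 0.18), Hibadh (−0.29 to 0.15) and Aldh6a1 (−0.41 to 0.04), and in sWAT for Bckdha (−0.30 to 0.81), Ivd (−0.09 to 0.13), Auh (−0.14 to 0.20) and Abat (−0.31 to 0.22). In the difference it did so for Mccc1 (−0.49 to 0.80), Acad8 (−0.80 to 0.54), Bckdha (−0.72 to 0.67), Mccc2 (−0.08 to 0.28), Mmab (−0.73 to 0.13) and Slc7a8 (−0.22 to 0.70), and in the comparisons of tissues for 7 further values. The cause was not tested.

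The labels call the replicate numbers 1 to 3, which recur in each group, experiment numbers, without saying what libraries of one experiment share. Same-numbered libraries deviated from their group means with correlations of 0.31, 0.07 and 0.29 in BAT and −0.23, 0.19 and −0.32 in sWAT. Between the tissues the correlations were 0.01, 0.22 and 0.07 at 30 °C and −0.47, 0.54 and −0.30 at 4 °C. The signs varied, and the main fits did not take the numbers to pair the samples. With the replicate block, 6 members were higher and 1 lower in BAT, 16 and 1 in sWAT, 11 and 2 in the difference, 18 and 4 between tissues at 30 °C, and 1 and 1 at 4 °C.

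Over all genes in BAT, 1777 calls became 2806 with DESeq2, 3086 with the GC offset, 2799 with the replicate block, 3548 with both, 6509 without both libraries numbered 3, and 451 to 2483 when 1 library was left out. Between tissues at 4 °C, 2015 became 3873 with the GC offset, 3495 with the block and offset, and 1100 to 2239 when 1 library was left out. For the difference, 4108 ran from 2419 to 5498 when 1 library was left out. Upper quartile scaling moved the median of all genes in BAT from −0.04 to −0.20 and the median of the 29 genes from 0.46 to 0.29. Low levels (Slc7a5 and Abat in BAT, Bcat1) limit what could be detected there.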
